A study of Mus musculus with 186 samples.

Results

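The luminal cells examined here are the cells sorted as luminal from the adult mammary gland of FVB/NJ mice, an inbred strain, and captured singly. They were chosen by their label and by depth: of 90 sorted luminal cells, 76 kept at least 100000 reads and 1500 genes once mitochondrial and ribosomal protein genes had been taken out (84.4%, exact 95% interval 75.3% to 91.2%), among 186 cells in the series. The sort took cells of low CD29 that carried CD24, after removal of cells with CD31, CD45 or TER119, which mark endothelial, blood and red cells. The comparison population is 72 of 96 cells sorted as basal (high CD29) from the same strain and age, for which the minimum was 50000 reads and 1000 genes. No genotype or treatment separates the populations. Luminal cells lay on PCR plates B (24 of 24 passed) and C (52 of 66 passed), and basal cells on plates A (50 of 60) and B (22 of 36). No label ties a cell to a mouse, so each population counts as 1 sample. No test was made, there are no replicates, and all intervals cover counting error only.

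Luminal epithelial cells form the inner layer of the mammary ducts, face the lumen and make milk when the gland is induced to do so by prolactin and steroid hormones. They are usually divided into mature luminal (ML) cells, which carry the receptors for estrogen and progesterone and signal to their neighbours through secreted factors, and luminal progenitor (LP) cells, which lack most of these receptors and carry factors of the alveolar, milk-forming lineage. Casein genes lie side by side in the genome and are driven by prolactin through the transcription factor STAT5.

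Passing luminal cells held between 105636 and 3226961 reads, with a median of 1459610, and between 2563 and 8254 genes. Thinned to 50000 reads each, so that depth is equal, they showed a median of 3387 genes (range 597 to 5435) against 2620 in basal cells (653 to 6118). The mitochondrial share of reads had a median of 7.32% and reached 77.0%. No pair of luminal cells looked like 1 library deposited again, since the smallest chi-square per gene was 58.6, where sampling noise gives about 1.

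Some wells stood apart and are named before the results. At 50000 reads, 7 luminal cells (9.21%, 3.78% to 18.1%) had a read for 4 or more of 20 basal markers, and 9 (11.8%, 5.56% to 21.3%) had a read for 4 or more markers of another cell type. Together these were 13 cells, called other-lineage cells from here on, and 63 cells were left without them. Fibroblast markers were reached by 7 cells, endothelial markers by 4 and pericyte markers by 2, with overlaps between them. No cell reached 4 of 15 immune or 8 adipocyte markers. At the limit of 3 counts set for a count of 0, 0 of 76 cells leaves room for 3.95%. For erythroid markers the limit of 4 could not be reached, since only 4 were measured and Hbb-bs had no read in any luminal cell. A read for 2 of these 4 was found in 15 luminal and 0 basal cells. The counts of markers per cell were split: 66 of 76 luminal cells had a read for 0 or 1 of 12 fibroblast markers, whereas 6 cells had 9 to 12. For the 13 endothelial markers, 71 cells had 0 or 1 and 4 cells had 9 to 11, although the sort removed CD31-positive cells. Among basal cells, 7 of 72 (9.72%, 4.00% to 19.0%) reached 4 markers of another cell type.

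All but 1 of the 13 wells kept Krt18 at 979 to 2227 CPM. Luminal cell 55 had 11 fibroblast and 10 endothelial markers, with Krt18 at 1917 CPM (reads of a gene scaled to an equal total in each cell), Pecam1, the gene of CD31, at 746 CPM and the matrix gene Dcn at 2970 CPM. Luminal cell 63 had 14 basal markers and Acta2, the smooth muscle actin of myoepithelial cells, at 4372 CPM beside Krt18 at 1524 CPM. Luminal cell 54 differed from the rest: it had 12 of 12 fibroblast markers with Dcn at 12100 CPM and Col3a1, a fibrillar collagen, at 7362 CPM, while Krt18 stood at 148 CPM, Krt8 at 1.12 CPM and the epithelial adhesion gene Epcam at 0.562 CPM. Whether such wells held a cell of another type, more than 1 cell or free RNA was not tested. High Dcn by itself was also found outside the other-lineage cells. Luminal cell 13 held 18980 CPM of Dcn, the most of any luminal cell, with a read for 1 fibroblast marker and Col3a1 at 0 CPM. It also had the highest mitochondrial share, 77.0%, and only 1617 genes at 50000 reads. Luminal cells 46 and 89 held 3858 and 2590 CPM of Dcn, also with Col3a1 at 0 CPM.

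**Figure D1:**
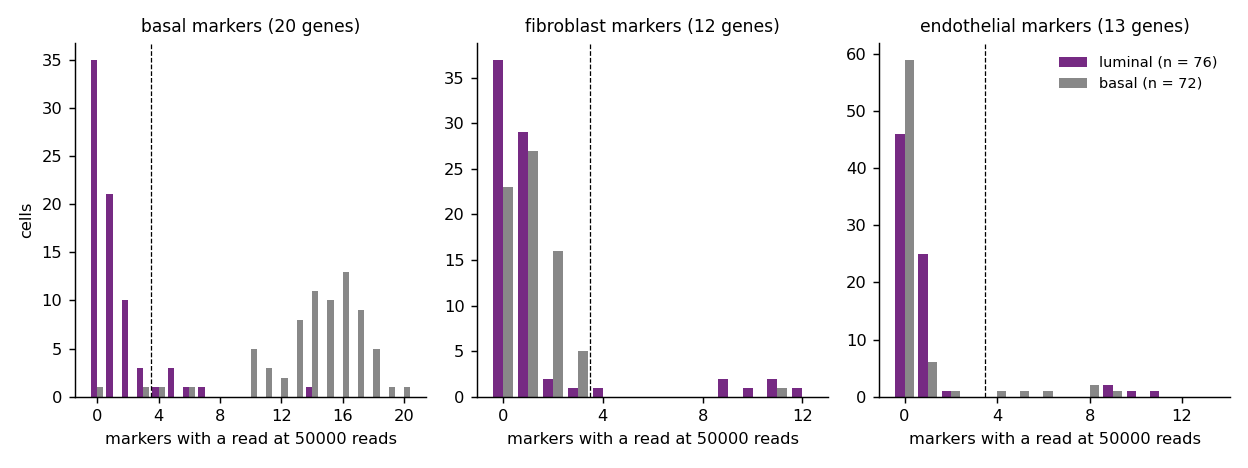
Number of cells (vertical axis) by the number of basal, fibroblast or endothelial markers with a read at 50000 reads (horizontal axis), for 76 luminal cells (purple) and 72 basal cells (grey), with the limit of 4 markers as a dashed line. Most luminal cells have 0 or 1 marker of each list, 1 luminal cell has 14 basal markers, and 6 luminal cells with 9 to 12 fibroblast markers and 4 with 9 to 11 endothelial markers lie far from the others.

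The label was checked against 6 luminal markers. Krt18, a keratin of simple epithelia (gene 16668, chromosome 15, 102028216 to 102032026, build GRCm38.p6), ranged from 148 to 9400 CPM over the luminal cells with a median of 2947, and had a read in 76 of 76 cells at 50000 reads. In basal cells its median was 1.18 CPM and the highest cell held 2974 CPM. The ranges overlapped, but 71 of 76 luminal cells held at least 1000 CPM. Pooled over cells, Krt18 stood at 3059 CPM in luminal cells (exact Poisson 95% interval 3049 to 3070) and 122 CPM in basal cells, a log2 ratio of 4.63 with 1 CPM added to each side.

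Krt19 (chromosome 11, 100140810 to 100145926), another simple keratin, had a median of 1571 CPM (1.44 to 5038) and a log2 ratio of 4.25. Krt8 (chromosome 15, 101996711 to 102004342), the partner of Krt18 in the filament, had a median of 1379 CPM (1.12 to 7970) and a ratio of 3.10, the smallest of the 6, with a read in 56.9% of basal cells. Prlr (chromosome 15, 10177238 to 10349190), the prolactin receptor, had a median of 3894 CPM and ranged from 15.7 to 14729 CPM. Its log2 ratio was 6.21, and its median in basal cells was 1.41 CPM. The highest Krt18 and Krt8 levels were both in luminal cell 74, which had 597 genes at 50000 reads and a mitochondrial share of 45.3%.

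The last 2 markers lacked a read at 50000 reads in more cells than the first 4 did. Areg (chromosome 5, 91139599 to 91148432), a ligand of the EGF receptor that acts downstream of estrogen, ranged from 0 to 8241 CPM with a median of 420 and had a read in 63 of 76 cells at 50000 reads (82.9%, 72.5% to 90.6%). Ly6d (chromosome 15, 74762056 to 74763567), a surface protein of the Ly6 family, ranged from 0 to 4006 CPM with a median of 222 and had a read in 50 of 76 cells (65.8%, 54.0% to 76.3%). It had the largest ratio of the 6, 7.44, and was at 0 in 17 luminal cells even at full depth. Of the 76 cells, 48 had a read for all 6 markers, 15 for 5, 11 for 4 and 2 for 3. Of 72 basal cells 2 had all 6 and 10 had 3, so a read for 3 markers does not separate the populations. Luminal cell 54 had a read for 4 of the 6 but for 0 of 24 junction genes, and its levels above go against the label.

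**Figure D2:**
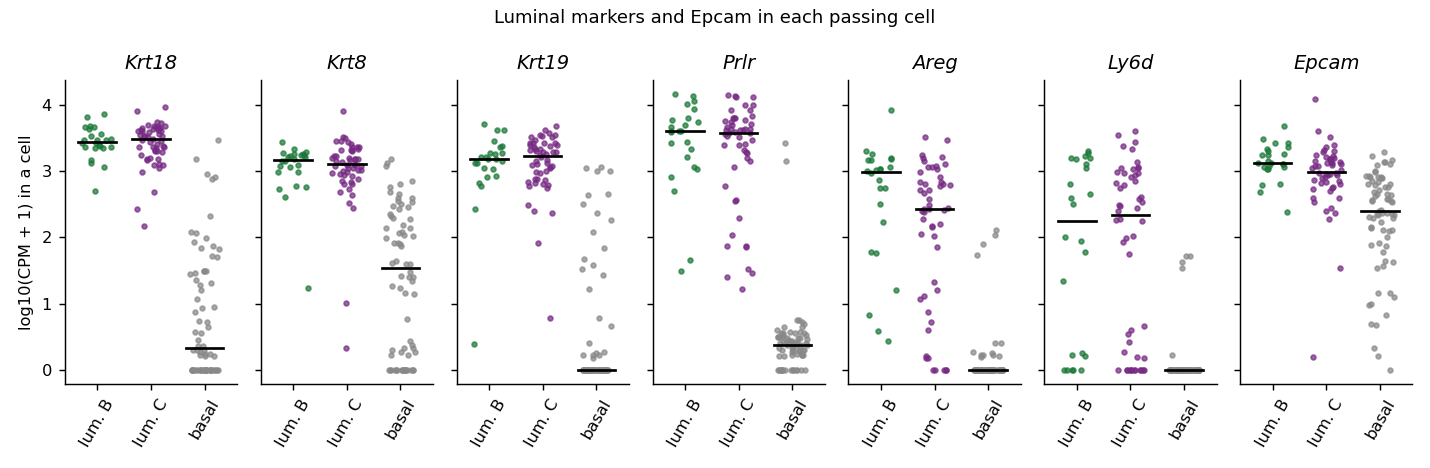
Level of the 6 luminal markers and Epcam in each passing cell, as log10 of CPM plus 1 (vertical axis), for luminal cells of plate B (green), luminal cells of plate C (purple) and basal cells (grey); each point is a cell and bars are medians. Krt18, Krt8 and Krt19 are high in nearly all luminal cells on both plates. Prlr is high in most of them but has a median of 44.0 CPM in the 11 cells with 3 or fewer ML markers (described below). Areg and Ly6d are at or near 0 in a part of the luminal cells, and Epcam is also present in most basal cells.

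Per length of gene (RPKM, the CPM of a gene over its length in kilobases), the program was led by genes that any cell uses and by products of secretory epithelium. Actb, the cytoskeletal actin, was highest at 9297 RPKM, and Mt1, a metallothionein, followed among the known protein genes at 5616 RPKM. Wfdc18, a secreted protein of the whey acidic family, stood at 4370 RPKM, above Eef1a1, a translation factor, at 3893 RPKM. Krt18 stood at 2185 RPKM, close to Cd9, a tetraspanin, at 2324 RPKM and B2m, the light chain of MHC class I, at 2306 RPKM. Csn2 (1763 RPKM), Csn1s2a (1642), Csn3 (1585) and Trf (1576), all genes of milk proteins, were also among the 20 highest. Mir682, Ubb-ps and Gm9794 were in that group too, but they overlap or copy other genes and their reads are uncertain.

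The program was broad but few genes were in all cells. At 50000 reads, 20 genes had a read in every luminal cell, 223 in at least 90% of cells and 2112 in at least 50%, while 14883 had a read in at least 1 cell. In basal cells 171 genes reached 90% and 1461 reached 50%. The 100 largest genes of a cell took a median of 30.0% of its reads and up to 89.4%.

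Against basal cells, 4192 of 14773 genes tested (28.4%) were at least 2-fold higher in luminal cells and 2697 (18.3%) at least 2-fold lower, with a median log2 ratio of 0.18 over all genes. Without the 13 other-lineage cells these counts were 4002 (27.1%) and 3042 (20.6%). On plate B alone, which holds cells of both populations, they were 6121 (41.4%) and 2551 (17.3%), with a median of 0.48. Against this background, all 6 luminal markers, 4 of 4 simple keratins and 13 of 13 tested milk genes were higher, and 20 of 20 basal markers were lower. Among genes of at least 50 CPM with a read in at least 50% of luminal cells, the largest ratios belonged to Plac8 (8.07), Ly6d (7.44), Tmprss2, a serine protease of the apical surface (7.30), Areg (6.88), Csn1s1 (6.79), Foxa1, a pioneer factor that opens sites for the estrogen receptor (6.78), Cgn, a tight junction protein (6.68), Piezo2, a channel opened by stretch (6.56), Cd82 (6.41) and Cmtm8 (6.31). Plac8 and Tmprss2 had a read in 0 of 72 basal cells at 50000 reads. The lowest ratios belonged to Nrg1, a ligand of ERBB receptors (-8.14), Serpina3h (-7.55), Tpm2 (-7.48), Krt5, a basal keratin (-7.45), Il17b (-6.56), Acta2 (-6.50), Moxd1 (-6.43), Igfbp3 and Ccnd2 (both -6.30) and Col17a1, a hemidesmosome collagen (-6.16). Without the 13 other-lineage cells 19 of 20 ML markers, 16 of 20 LP markers and 12 of 13 milk genes were higher, and 20 of 20 basal markers were lower. Markers of other cell types were counted both ways too. Of 12 fibroblast markers 6 were higher and 2 lower in luminal cells (median 0.92), and without those wells 0 were higher and 9 lower (median -3.69). Endothelial markers had 0 of 12 tested members higher and 5 lower, or 0 and 11 without those wells. Pericyte markers had 3 of 8 higher and 4 lower, or 0 and 6 without those wells. The rest had the same counts both ways, with immune markers at 1 of 4 higher, adipocyte markers at 1 of 2 lower and erythroid markers at 2 of 3 higher. Luminal cell 63 alone held 78.1% of the luminal Acta2 reads and 82.8% of those of Nrg1, and without it the ratios were -8.60 and -10.22.

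**Figure D3:**
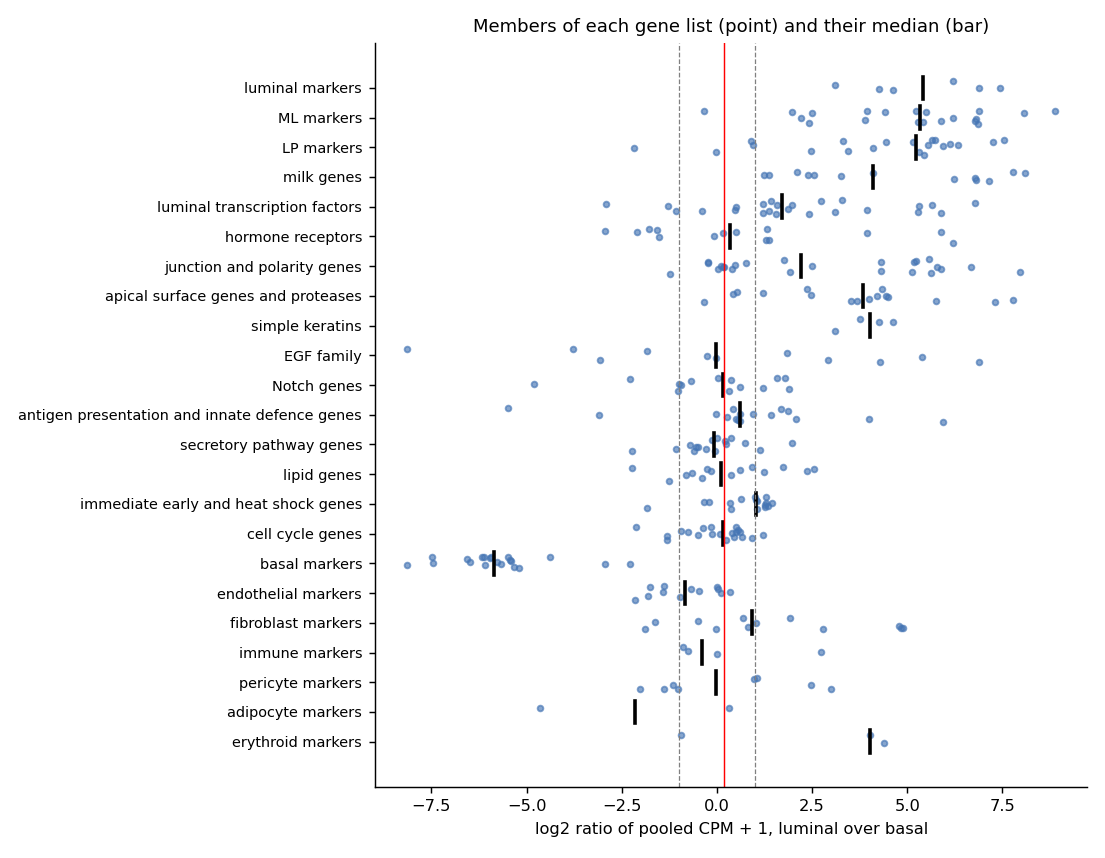
Log2 ratio of pooled CPM plus 1, luminal over basal (horizontal axis), for the tested members of each gene list; each point is a gene, black bars are list medians, dashed lines mark 2-fold and the red line is the median of all genes tested. Keratin, ML, LP, milk and apical lists lie to the right, basal markers lie to the left with a median of -5.86, and secretory, lipid, Notch and cell cycle lists have medians near that of all genes, 0.18, which on plate B alone (not drawn) were 0.17, 1.03, -0.99 and 2.02 against 0.48 for all genes.

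Junction and polarity genes differed from member to member. Of 24 tested, 14 were at least 2-fold higher in luminal cells, 1 was lower and 9 lay between (median 2.20). On plate B alone 16 were higher and 1 lower (median 4.26). The claudins, which seal tight junctions, were far apart between the populations: Cldn8 had a log2 ratio of 7.95, Cldn1 5.78, Cldn3 5.58, Cldn4 5.22 and Cldn7 5.13. Cldn4 had a read in 93.4% of luminal and 5.56% of basal cells. Over all plates desmosome and plaque genes were nearly equal, with Jup at 0.04, Dsp at 0.39 and Dsg2 at 0.47, and so were Tjp1 at 0.10 and F11r at 0.19. Epcam, the highest of the list at 727 RPKM, had a ratio of 1.77 and a read in 88.9% of basal cells. Pkp3, a desmosome plaque protein, was the lower member at -1.23.

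Apical surface genes and proteases had 13 of 16 members higher and 0 lower (median 3.84). Besides Tmprss2, the membrane protease genes St14 and Prss8 had ratios of 4.34 and 5.76, and their inhibitor Spint1 had 3.67. Muc1, a mucin of the apical membrane, had a pooled luminal level of 220 CPM and no read in basal cells. Luminal cell 45 held 67.4% of its luminal reads, however, and the level without that cell was 72.9 CPM. That cell had 1000 genes at 50000 reads and a mitochondrial share of 29.4%. Cd9 and Cd24a, the latter the gene of the sort marker CD24, differed little, with ratios of 0.43 and 0.54.

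Of 24 luminal transcription factors, 18 were at least 2-fold higher, 3 were lower and 3 lay between (median 1.72). Foxa1, Esr1, the estrogen receptor, and Elf5, a factor of the alveolar lineage, had ratios of 6.78, 5.90 and 5.66. Gata3, a factor needed to keep luminal identity, was high in both populations, with a median of 565 CPM in luminal and 179 CPM in basal cells and a ratio of 1.41. On plate B alone its ratio was 0.82. Trps1, a GATA-type repressor, had a ratio of 3.11 and a read in 97.4% of luminal cells. The 3 lower factors were Tfap2c (-2.90), Runx1 (-1.29) and Klf5 (-1.08), of which Runx1 was still read in 90.8% of luminal cells.

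Hormone receptors were mixed, with 6 of 14 higher and 5 lower (median 0.34), or 5 and 6 on plate B alone (median -0.20). Prlr was the highest at 340 RPKM, and the steroid receptors were much lower, Esr1 at 23.2 RPKM and Pgr, the progesterone receptor, at 20.4 RPKM. Esr1 had a read in 42 of 76 cells and Pgr in 44 of 76 at 50000 reads, with highest values of 561 and 1251 CPM. Igf1r and Oxtr, the oxytocin receptor of contractile cells, were lower, with ratios of -2.11 and -2.95. Esr2, the beta form of the estrogen receptor, had a read in 2.63% of luminal cells.

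The EGF family and the Notch genes each had members on both sides. In the EGF family 5 of 11 were higher and 4 lower: the ligands Areg (6.88) and Btc (5.38) and the receptors Erbb3 (4.29), Erbb2 (2.92) and Erbb4 (1.83) were higher, whereas the ligands Nrg1 (-8.14), Ereg (-3.77) and Tgfa (-1.83) and the receptor Egfr (-3.07) were lower. Tgfa and Egfr were on the other side on plate B alone, at 2.50 and 0.19, and single cells held 67.4% and 86.5% of their luminal reads. Among 14 Notch genes 4 were higher, near the 28.4% of all genes tested, and 4 were lower, against 18.3% of all genes. The Notch counts were 2 and 7 on plate B alone (median -0.99) and 2 and 5 without the other-lineage cells (median -0.40). Hes1, a target of Notch signalling, had a ratio of 1.57 and the ligands Jag1 and Dll1 had -1.01 and -4.80.

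Other gene groups had medians closer to that of all genes. Secretory pathway genes had 2 of 16 higher and 2 lower (median -0.09; 4 and 2 on plate B alone), with Canx, a chaperone of the endoplasmic reticulum, at 5569 CPM in luminal and 5522 CPM in basal cells. Lipid genes had 4 of 14 higher and 2 lower (median 0.11), but 7 and 5 on plate B alone (median 1.03), and Scd1, a fatty acid desaturase, had a ratio of 2.55. Antigen presentation and innate defence genes had 6 of 16 higher and 2 lower (median 0.60), among them Psmb8, an immunoproteasome subunit, at 2.07 and Nfkbia, an inhibitor of NF-kappaB, at 1.88. MHC class II genes were nearly absent from luminal cells, with H2-Aa, H2-Ab1 and H2-Eb1 in 0 of 76 cells at 50000 reads. Immediate early and heat shock genes had 9 of 16 higher and 1 lower (median 1.04), with Fos at 1.28, Klf6 at 1.27 and Atf3 at 1.02. These genes can be induced while tissue is dissociated, and the part of handling in their level was not tested.

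Cell cycle genes were carried by a minority of cells. Against basal cells 1 of 20 was higher and 3 lower (median 0.16), whereas on plate B alone 13 were higher and 0 lower (median 2.02). Of the 20 genes, the median luminal cell had a read for 2, 43 cells had 2 or fewer, 18 cells had 3 to 6 and 15 cells (19.7%, 11.5% to 30.5%) had 8 to 17, a limit chosen after the values were seen. In basal cells 20 of 72 (27.8%, 17.9% to 39.6%) had 8 or more. Plate B held 6 of these luminal cells among 24 and plate C held 9 among 52. Mki67 and Top2a, genes of dividing cells, had a read in 30.3% and 28.9% of luminal cells. The mean level of the list and the number of genes in a cell had a Spearman rho of 0.58 (n = 76; 0.76 on plate B, n = 24, and 0.48 on plate C, n = 52).

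Variation between the luminal cells was led by milk genes. For each of 8413 genes with a read in at least 10% of cells, the SD over cells of log2(reads + 1) at 50000 reads was set against the median SD of the 200 genes nearest in mean, and 84 genes (0.998%) lay at least 0.5 above it. The largest excess belonged to Trf, transferrin (1.90), Wfdc18 (1.66), Csn1s1 (1.65), Csn3 (1.63), Csn2 (1.497), Spp1, osteopontin (1.43), Csn1s2a (1.18), Dcn (1.13), Lcn2, an iron-binding defence protein (1.10), Slpi, a protease inhibitor (1.07), Gpx3, a secreted peroxidase (1.02) and Fstl1 (1.01). Milk genes made up 7 of the 84 among 11 with enough reads, and ML markers 5 among 20. By contrast Krt18 and B2m had an excess of -0.76 and -0.61. At the top of the range of means the reference is the 200 genes of highest mean, so such values are not a comparison at equal mean.

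Per cell, Trf ranged from 0 to 39052 CPM with a median of 980, and 38 of 76 cells held at least 1000 CPM. Csn3 ranged from 0 to 24333 CPM with a median of 125, and 25 cells held at least 1000 CPM. Csn2 had a median of 1.84 CPM and a highest value of 29339 CPM, and 18 cells held at least 1000 CPM. Both Trf and Csn2 were near 0 in a part of the cells and above 1000 CPM in others, and the part near 0 was larger for Csn2. Csn1s2a, with 10 cells at 1000 CPM or more, had 37.3% of its luminal reads in luminal cell 81. Wap, a late milk gene, had a read in 3 of 76 cells and Glycam1 in none at any depth. Lalba, which directs lactose synthesis, had a read in 17 of 76.

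**Figure D4:**
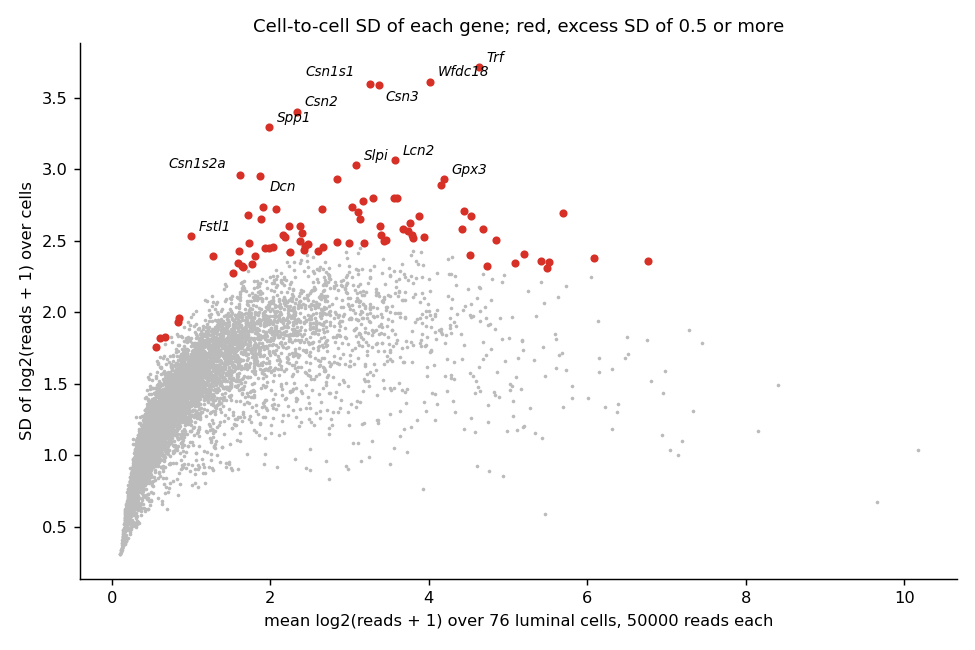
SD over 76 luminal cells of log2(reads + 1) at 50000 reads per cell (vertical axis) against the mean (horizontal axis) for 8413 genes; red points are the 84 genes with an excess SD of at least 0.5, and the 12 largest are named. Trf, Wfdc18, 3 casein genes (Csn1s1, Csn2 and Csn3) and Spp1 have the largest SDs of the genes plotted, and the band of grey points shows the SD usual at each mean.

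The casein genes lie together on chromosome 5, at 87666208 to 87682578 for Csn1s1, 87692619 to 87699429 for Csn2, 87774450 to 87788798 for Csn1s2a and 87925579 to 87932550 for Csn3. Since these neighbours varied together between cells, the 250 bases before the start of 3 of them are shown from the RefSeq tables of GRCm38.p6, 5′ to 3′ on the strand of the gene, with any TTCNNNGAA, the sequence bound by STAT5, in capitals. The windows are chr5:87665958-87666207 on the plus strand for Csn1s1, chr5:87699426-87699675 on the minus strand for Csn2 and chr5:87774200-87774449 on the plus strand for Csn1s2a.
Csn1s1: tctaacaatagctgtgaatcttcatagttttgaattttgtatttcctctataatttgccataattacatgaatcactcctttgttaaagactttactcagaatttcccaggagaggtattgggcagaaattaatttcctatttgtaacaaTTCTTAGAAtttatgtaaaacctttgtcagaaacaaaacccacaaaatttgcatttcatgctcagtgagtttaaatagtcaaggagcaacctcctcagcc
Csn2: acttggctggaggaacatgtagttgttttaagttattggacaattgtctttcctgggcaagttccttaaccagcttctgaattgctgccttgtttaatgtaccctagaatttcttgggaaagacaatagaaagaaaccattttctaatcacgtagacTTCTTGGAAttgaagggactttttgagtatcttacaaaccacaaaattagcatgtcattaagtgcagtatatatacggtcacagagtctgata
Csn1s2a: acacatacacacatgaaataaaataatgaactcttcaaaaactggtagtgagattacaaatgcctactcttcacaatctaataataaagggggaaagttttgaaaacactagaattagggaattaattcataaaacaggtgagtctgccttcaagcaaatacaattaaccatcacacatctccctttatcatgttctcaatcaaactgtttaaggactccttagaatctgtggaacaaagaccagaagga
The start of Csn2 in the promoter table lies a few bases inside the outer end of the gene given above, and distances are from the table's start. The motif reads the same on both strands. It began 100 bases before the start in Csn1s1 and 93 bases before it in Csn2, and these letters were not in the window of Csn1s2a. Of 32851 windows of the same length over all genes, 2306 (7.02%) held it, as did 3 of 9 milk gene windows, 3 of 23 ML marker windows, 0 of 19 LP marker windows and 1 of 6 luminal marker windows. A match is a description of letters and says nothing of binding in these cells.

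Among the caseins, Csn2 and Csn1s1 followed each other most closely between cells (Spearman rho 0.85 over 76 cells, with both genes read in 28), followed by Csn2 and Csn1s2a (0.70). Csn3 went rather with Trf (0.84) and Lcn2 (0.80) than with Csn2 (0.43). Over the 55 pairs of milk genes with enough reads the median rho was 0.38 and 54 were above 0. Whether any of these genes share reads was not tested.

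ML markers were widespread. Of 20, 19 were at least 2-fold higher in luminal than in basal cells (median 5.35), and Prom1 was the exception at -0.33. Ptn, a secreted growth factor, was highest at 1223 RPKM, followed by Ly6a (1015) and Cited1, a coactivator of the estrogen receptor (945). Cited1 had a read in 65 of 76 cells and Upk3a, a uroplakin, in 27 of 76. Tnfsf11, the RANK ligand by which progesterone acts on neighbouring cells, had a read in 13.2% of cells and Wnt4, another such signal, in 47.4%. Over the 190 pairs of ML genes 178 had a rho above 0, with a median of 0.23. Prlr followed Ptn (0.54), Esr1 (0.47) and Areg (0.44).

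LP markers were in fewer cells. Of 20, 16 were higher than in basal cells and Itga2 was lower (-2.17), with a median of 5.22. On plate B alone 18 were higher and 0 lower, with Itga2 at 0.24. Wfdc18 was highest, followed by Lcn2 (1471 RPKM) and Spp1 (1123 RPKM). Lcn2 was as high in basal cells, with a ratio of -0.03 and a read in 93.1% of them. Ehf, an epithelial ETS factor, had a read in 45 of 76 cells, Kit, a receptor tyrosine kinase, in 23, Elf5 in 18 and Aldh1a3, a retinaldehyde dehydrogenase, in 15. Foxi1 had a read in 3 of 76 cells, and luminal cell 45 held 93.9% of its luminal reads at 8373 CPM. The members of both lists were chosen with earlier results of these cells known, so the lists are not independent evidence of their direction.

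Each luminal cell was read on both lists. With 4 or more markers as the limit, 37 of 76 cells (48.7%, 37.0% to 60.4%) had both ML and LP markers, 28 (36.8%, 26.1% to 48.7%) had ML markers with 3 or fewer LP markers, and 11 (14.5%, 7.45% to 24.4%) had LP markers with 3 or fewer ML markers. No cell had 3 or fewer of both. The limit is not specific to luminal cells, since 9 of 72 basal cells reached it for LP and 3 for ML markers. Other-lineage cells were 7 of the 37, 4 of the 28 and 2 of the 11, and luminal cell 54 was among the 28. Prlr is itself an ML marker, so its order over the groups is partly set by how the luminal cells were divided. It had a median of 6308 CPM in the 28 cells, 3807 CPM in the 37 and 44.0 CPM in the 11. Trf went the other way, with medians of 2.79, 2082 and 11499 CPM. Krt18 differed little, with medians of 3200, 2608 and 2579 CPM. The cells also differed in breadth, with medians of 3027, 3870 and 2235 genes at 50000 reads, and the part of this in the marker counts was not tested.

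As mean log2(reads + 1) over each list, ML and LP levels ran against each other over all cells (Pearson r -0.43, Spearman rho -0.36, n = 76). On plate C r was -0.55 and rho -0.53 (n = 52), and on plate B r was -0.04 and rho 0.11 (n = 24), so the relation did not hold within both plates. Without the other-lineage cells r was -0.43 and rho -0.35. LP and milk levels, which share no gene, ran together with r 0.88 and rho 0.83, on plate B (0.83 and 0.70) as on plate C (0.90 and 0.87). Among the 48 cells with 4 or more LP markers r was 0.74 and rho 0.60, and among the 28 cells with 3 or fewer r was 0.43 and rho 0.32. All points share depth by thinning but not breadth, and the number of genes in a cell had a rho of 0.40 with ML and 0.26 with LP levels. The paper lists many LP and milk genes in the same cluster of its pubertal and adult cells, and many ML markers in another. List members were also chosen with earlier results known, so the relations between lists are a description and not independent evidence.

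**Figure D5:**
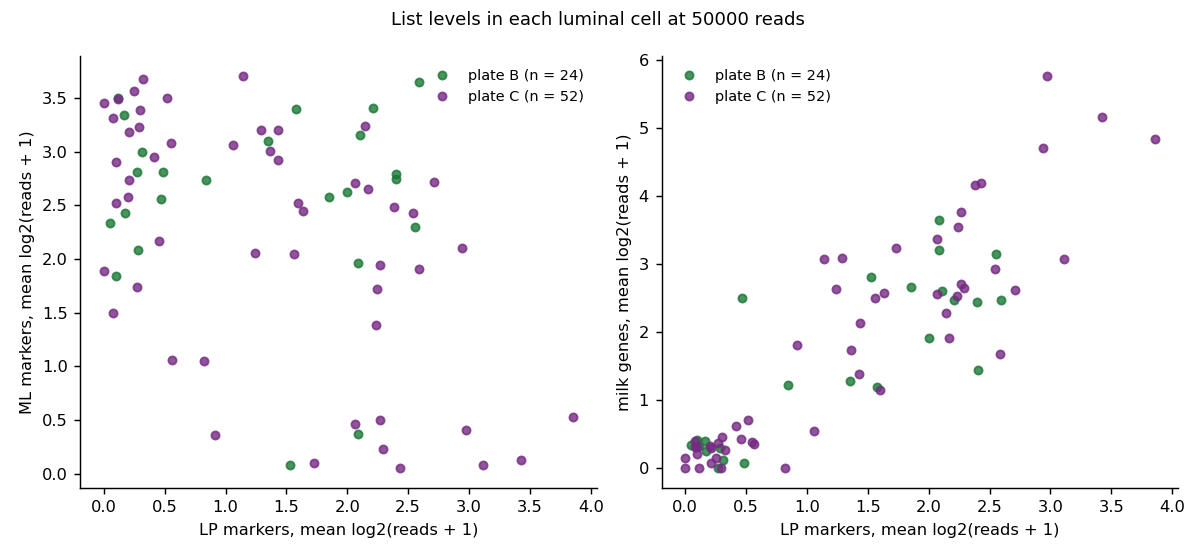
Mean log2(reads + 1) of ML markers (left) and milk genes (right) against that of LP markers (horizontal axes) in each luminal cell at 50000 reads, for plate B (green, n = 24) and plate C (purple, n = 52). Cells of low ML level are mostly plate C cells of high LP level, and milk gene level rises with LP level from a group of cells near 0 for both (Spearman rho 0.83).

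Ward clustering on the 500 genes of largest excess SD gave 2 clusters of 56 and 20 cells, on both plates (18 and 6 cells of plate B). The larger was led by Marcks, Gpx3, Tagln2, Golt1b, Ssr3 and Selenof and the smaller by Lars2, Sik1, Lrif1, Smyd3 and Csn1s2a. None of the ML or LP markers was among the 10 leading genes of either, and neither was named. The smaller cluster had fewer genes (median 2051.5 against 3668) and a higher mitochondrial share (10.5% against 6.38%), whose part in the split was not tested. At 4 clusters, read after the values were seen, 47 cells were led by Gpx3, Slpi and Ptn with 3 ML markers among 10 leading genes, 11 cells by Trf, Wfdc18, Csn2, Csn3 and Lcn2, 9 cells by Fxyd2, Tmem106b and Samd5, and 9 cells by Fstl1, Vim and Sparc. Each of these last 9 was an other-lineage cell. The 9 cells led by Fxyd2 had a median of 1706 genes at 50000 reads and a mitochondrial share of 17.5%. In the 47 cells these medians were 3662 genes and 6.40%, and their part in the clusters was not tested.

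The plates were compared within the luminal cells. Of 14773 genes, 3630 (24.6%) were at least 2-fold higher on plate C and 2270 (15.4%) at least 2-fold higher on plate B, with a median log2 ratio of 0.10. The 6 luminal markers all lay within 2-fold (median -0.11). Milk genes had 7 of 13 members higher on plate C and 0 lower, with Csn1s2a at 4.57, Csn2 at 3.56 and Csn1s1 at 2.21, whereas Csn3 was at -0.68. Endothelial and fibroblast markers had 10 of 12 members each higher on plate C, which held 8 of the 9 cells with such transcripts. Among genes of at least 50 CPM with a read in at least 50% of the cells of the higher plate, Cebpz (3.19), Zfp948 (3.03), Csnk1g1 (2.92) and the adhesion receptor Cd44 (2.87) led on plate C, and Nfkb2, an NF-kappaB subunit (-3.01), Wdr13 (-2.81) and Tra2a (-2.51) on plate B. Luminal cell 84 held 74.5% of the Zfp948 reads and luminal cell 8 held 57.8% of those of Nfkb2. No mouse or day of capture is named for a cell, so plate, mouse and day cannot be told apart.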

How the data were processed

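Capture used the Fluidigm C1, a chip that makes cDNA from a cell per site, prepared with Nextera XT and sequenced on an Illumina HiSeq. The authors mapped read pairs to mm10 with Subread and deposited raw counts per gene and cell made with featureCounts and its RefSeq annotation. Strand use and the treatment of shared reads are not given in the sources used here. Of 27179 identifiers, 25275 matched a symbol in RefSeq (GRCm38.p6), and the rest held 1.94% of counts. A table of the whole series, which repeats the cells' counts, was not used. After removal of 15 mitochondrial and 124 ribosomal protein genes, the study's thresholds on cells were applied, and genes of at least 1 CPM in at least 3 cells were kept (14773). Doublets were not called; the study viewed each capture site.

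Counts were summed per population, scaled to CPM over these genes and compared as log2 ratios with 1 CPM added. Cells were thinned without replacement to 50000 reads. Steps were tested on simulated data. Shares have exact Clopper-Pearson and sums exact Poisson intervals (95%), and a count of 0 is given with a limit of 3 counts. Reads carry no molecular identifiers, so intervals cover counting error only. Listed genes named in the text were the 3 of highest RPKM, up to 2 detected in under 10% of cells, and any ML or LP marker; others were the 20 highest RPKM, the 20 largest excess SD, and the leading genes by ratio, plate and cluster. Further genes were named after their values were seen. Members and lists were chosen with earlier results of these data known. Of the 23 lists, 1 gene had no row, and the values of 1 listed gene are not reported here. Python 3.11.15, numpy 2.4.6, scipy 1.17.1 and, for TMM factors among the alternatives, edgeR 4.0.16 were used.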

Additional observations from a re-analysis of the deposited data

Results flagged for a closer look

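The 14 luminal cells left out for low depth came from plate C, entered no comparison and still carried luminal transcripts. Krt18 had a read in 14 of 14, at 1820 CPM over the cells (77.1 to 7011 CPM per cell), where a count of 0 would allow up to 7.27 CPM. Prlr had a read in 14 of 14, at 19416 CPM (714 to 44896 CPM per cell, median 8540), against 4557 CPM in the passing cells. Epcam had a read in 11 of 14, at 1939 CPM (0 to 6338 CPM per cell). These cells held 4913 to 84573 reads after gene removal.

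The genes taken out before the analysis also hold signal: in passing luminal cells the mitochondrial share had a median of 7.32% (0.202% to 77.0%) and the ribosomal protein share a median of 2.08% (0.140% to 3.21%), where a count of 0 would allow up to 0.000934%.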

How the results depend on the processing

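Counts of passing cells stayed within 75 to 78 under 3 other thresholds. The genes at least 2-fold higher and lower in luminal cells were 2155 and 1454 with 10 CPM added, and 1142 and 932 among genes of at least 50 CPM in either population; 7 other settings each, TMM and median-of-ratios scaling and plate B alone among them, stayed within 1.5 times. Genes apart between the plates numbered 5900 in the comparison reported, 2724 with 10 CPM added and 1556 among genes of at least 50 CPM on either plate. Variable genes numbered 226 at full depth and 12 at an excess SD of at least 1. The smaller cluster held 12 cells at full depth, 13 on plate C alone, 10 with the 500 genes of largest variance and 1 with average linkage, so the split of 20 cells depends on these settings. For ML against LP levels, rho and r were -0.32 and -0.38 at 100000 reads, -0.29 and -0.36 at full depth, -0.086 and -0.18 as shares of members with a read, 0.11 and -0.044 within plate B, -0.53 and -0.55 within plate C, and -0.34 and -0.39 with another seed. Luminal cells with basal transcripts were 34.2% at full depth, 2.63% with at least 5 reads per marker and 26.3% with 2 markers; those with transcripts of other cell types were 28.9% at full depth and 35.5% with 2 markers. The cause of these shifts was not tested.

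Of 199 listed or named genes at least 2-fold apart, ratios changed sign on plate B alone for Itga2 (0.24), Csn1s2b (-0.44), Hey1 (-1.87), Tgfa (2.50), Egfr (0.19), Mki67 (4.62), Mcm3 (0.66), Cdc20 (3.66), Clec3b (2.32), Kcnj8 (0.11) and Abcc9 (-0.90). Without the cell of most reads Hspa1a changed to -0.48. Without the other-lineage cells, an alternative chosen after seeing the data like the 4 clusters and the limit of 8 cell cycle genes, Col3a1 (-6.77), Lum (-5.02), Mfap5 (-4.14), Dpt (-2.61), Pdgfrb (-2.70), Pi16 (-0.72), Loxl1 (-0.58), Abcc9 (-0.39), Cldn5 (-0.017) and Cspg4 (-0.0019) changed sign. No paired analysis was possible because basal and luminal cells share only cell numbers and no test was made.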

Other observations

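Hemoglobin alpha transcripts were found in a part of the luminal cells. At 50000 reads Hba-a1 had a read in 18 of 76 luminal cells (23.7%, 14.7% to 34.8%) and Hba-a2 in 15 of 76, against 0 of 72 basal cells each. The highest luminal cell held 280 CPM of Hba-a1. Hbb-bs, a beta chain gene, had no read in any luminal cell. The alpha genes are near-identical copies and may share reads, and the sort removed TER119-positive cells. These genes were chosen after their values were seen.

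Fibrinogen genes, best known from liver, were among the most variable genes: Fgg ranged from 0 to 11310 CPM (median 78.1) and Fgb from 0 to 4967 CPM (median 0), with 15 and 12 cells at 1000 CPM or more.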
